A study of Mus musculus with 11 samples.

Results

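The 9 genes described here, Cdh1, Epcam, Cldn6, Cldn7, Ocln, Tjp1, Krt8, Krt18 and Vil1, encode proteins of the cell junctions, the keratin cytoskeleton and the brush border of epithelia. They were chosen by name from the 15061 genes counted in mouse yolk sac at embryonic day 9.5, and all 9 were among the 14671 genes with enough reads to be tested. Epithelial cells are joined side by side by adherens junctions, sealed below the free surface by tight junctions, braced inside by keratin filaments, and often carry microvilli bundled by actin-binding proteins. In the mouse yolk sac this organisation belongs above all to the visceral endoderm, the outer layer that absorbs and secretes nutrients through an apical brush border, while the inner layer is extraembryonic mesoderm with blood vessels, blood islands and a mesothelium.

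The 3 H1CKO libraries, numbered 5 to 7, came from embryos of genotype T-Cre+/-; Hand1 fx/fx. T (brachyury) is a gene of the primitive streak and of the mesoderm that leaves it, and it drives the Cre recombinase there. The 4 H1H2H2 libraries, numbered 8 to 11, came from Hand1 H2/H2 embryos, in which Hand2 stands in the place of Hand1 on both chromosomes. The 4 control libraries, numbered 1 to 4, came from Hand1 fx/+ embryos with 1 floxed and 1 normal allele and no Cre in their labels. HAND1 and HAND2 are related transcription factors, and the question of the design is how the yolk sac differs without HAND1 and whether it differs when HAND2 is made in its stead. Cre is named only for H1CKO, so what the Cre itself does and what losing Hand1 does cannot be told apart. The H1CKO description field names a knockout over a floxed allele, while the genotype field has fx/fx, and the genotype was used here. Column names call the controls wild type. The names of control 1 and control 2 share a yolk sac number. Each title names an embryo as the source and the other yolk sac numbers all differ, but no label gives litters or says whether control 1 and control 2 came from separate embryos. The p-values measure the spread between these samples, which may in part be technical.

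Each library held 12019377 to 16824228 reads counted on genes, and the 9 genes together took 0.165% to 0.185% of them in H1CKO, 0.248% to 0.276% in H1H2H2 and 0.222% to 0.233% in control. Levels are given as CPM, read counts scaled to a common library size by the trimmed mean of M values (TMM). Hand1 itself had 10.8, 6.19 and 5.95 CPM in H1CKO, 15.3, 4.35, 8.59 and 9.97 CPM in H1H2H2, and 58.1, 91.1, 41.9 and 31.1 CPM in control. In edgeR's quasi-likelihood test it differed from control by -2.86 in H1CKO (adjusted p = 0.000202) and by -2.55 in H1H2H2 (adjusted p = 0.00482) on the log2 scale. Hand2, whose reads do not tell the replaced Hand1 locus from the gene's own, had 70.5, 72.8 and 91.8 CPM in H1CKO, 81.0, 23.6, 35.9 and 33.7 CPM in H1H2H2, and 43.5, 42.3, 47.2 and 31.7 CPM in control. The read count behind a single value of the 9 genes ran between 350 and 10167.

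Markers of other tissues stood apart in several libraries. The summed level of 12 heart muscle markers was 4239 to 11140 CPM in H1CKO, 28.7 to 66.9 CPM in H1H2H2 and 39.3 to 223.9 CPM in control. The 223.9 CPM was that of control 1, against 39.3 to 71.6 CPM in the other controls. None of the 12 was at 0 in any H1CKO library. For 10 markers of neural tube and somite the sums were 99.7 to 132.4 CPM in H1CKO, 0.757 to 2.05 CPM in H1H2H2 and 1.27 to 3.69 CPM in control, again with none at 0 in H1CKO. The 8 tested markers of surface ectoderm, gut and nephric epithelium summed to 45.5 to 48.7 CPM in H1CKO, 3.50 to 6.57 CPM in H1H2H2 and 6.88 to 15.98 CPM in control. Parietal endoderm markers summed to 5116 CPM in H1H2H2 9 and 6819 CPM in control 2, against 1326 to 1775 CPM in the other 9 libraries. Markers of mesoderm and mesothelium, 9 of 10 of them tested, summed to 1108 to 1342 CPM in H1CKO, 1824 to 4861 CPM in H1H2H2 and 3606 to 4017 CPM in control. Col1a1 weighs most in these sums, with means of 528 CPM in H1CKO and 2566 CPM in control. Singly, 4 of the 9 were called lower in H1CKO against control, 1 higher and 4 neither, with a median log2 fold change of -0.16. The 9 endothelial markers summed to 614.8 to 723.3 CPM in H1CKO, 354.6 to 675.9 CPM in H1H2H2 and 555.6 to 689.9 CPM in control. Calls of the 9 genes and of the lists were therefore also counted without H1H2H2 9 and control 2. The part that these tissues have in the results was not tested, and fewer cells of a type cannot be told apart from less RNA per cell in bulk samples.

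The promoters of these genes are shown because junction genes are textbook targets of the repressors SNAI1 and ZEB1, which recognise the E-box letters CAGGTG. In RefSeq (GRCm38.p6), 8 of the 9 genes, all but Cdh1, had 10 promoter windows, each running from 250 bases before to 50 bases after a gene's start. The windows below, read 5' to 3' on the gene's own strand, are those of Epcam at chr17:87635729-87636028 (plus strand), Cldn6 at chr17:23679115-23679414 (plus), Krt8 at chr15:102004293-102004592 (minus), Vil1 at chr1:74409134-74409433 (plus) and Tjp1 at chr7:65371195-65371494 (minus). Capitals mark CAGGTG, or CACCTG where the letters lie on the other strand.
Epcam: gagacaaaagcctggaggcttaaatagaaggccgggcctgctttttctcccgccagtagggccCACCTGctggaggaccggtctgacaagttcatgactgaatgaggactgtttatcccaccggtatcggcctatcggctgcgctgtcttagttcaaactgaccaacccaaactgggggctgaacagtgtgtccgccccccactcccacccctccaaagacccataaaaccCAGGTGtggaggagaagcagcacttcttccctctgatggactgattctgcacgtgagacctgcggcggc
Cldn6: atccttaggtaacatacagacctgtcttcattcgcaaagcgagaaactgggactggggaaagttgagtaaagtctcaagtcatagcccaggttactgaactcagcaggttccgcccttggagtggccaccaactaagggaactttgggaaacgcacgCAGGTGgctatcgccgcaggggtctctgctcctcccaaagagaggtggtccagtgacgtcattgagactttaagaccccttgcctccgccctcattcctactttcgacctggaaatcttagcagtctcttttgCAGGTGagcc
Krt8: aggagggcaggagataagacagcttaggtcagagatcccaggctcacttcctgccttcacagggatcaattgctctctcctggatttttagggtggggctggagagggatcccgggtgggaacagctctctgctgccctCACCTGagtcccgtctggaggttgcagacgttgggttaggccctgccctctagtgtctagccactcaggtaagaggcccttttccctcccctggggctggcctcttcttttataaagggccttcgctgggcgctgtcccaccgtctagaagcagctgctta
Vil1: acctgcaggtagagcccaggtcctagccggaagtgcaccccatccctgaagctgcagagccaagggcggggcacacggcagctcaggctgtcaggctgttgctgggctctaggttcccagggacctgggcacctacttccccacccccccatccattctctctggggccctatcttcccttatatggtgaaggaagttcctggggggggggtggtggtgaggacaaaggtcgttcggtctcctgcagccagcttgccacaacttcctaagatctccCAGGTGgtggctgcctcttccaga
Tjp1: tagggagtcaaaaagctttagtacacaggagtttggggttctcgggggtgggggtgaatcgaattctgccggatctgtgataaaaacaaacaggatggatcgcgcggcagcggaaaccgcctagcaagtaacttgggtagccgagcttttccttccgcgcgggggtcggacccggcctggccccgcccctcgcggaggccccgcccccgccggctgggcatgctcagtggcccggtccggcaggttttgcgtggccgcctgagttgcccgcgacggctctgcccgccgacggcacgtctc

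The letters CAGGTG, on either strand, stood in 8 of the 10 windows and in 7 of the 8 genes. Tjp1 was the gene without them, and of the 2 windows of Cldn7 only the one at chr11:69965171-69965470 held them. Over all 32851 RefSeq windows the share with CAGGTG was 20.2%, and over the 13969 windows of tested genes it was 18.4%. Counted from +1 at the start, the sites begin at -187 and -19 in Epcam, at -93 and +41 in Cldn6, at -111 in Krt8, at -214 in Krt18 and at +27 in Vil1. The looser E-box CANNTG, of which CAGGTG is one form, was found in 8 of 10 windows, against 64.4% of the windows of tested genes. The GC box letters GGGCGG stood in 7 of 10 windows, against 61.1%, and TATAAA stood in 1, that of Krt8, against 7.39%. The letters AACCGGTT, recognised by Grainyhead-like factors, stood in 0 of 10 windows, against 0.215%. With a share that low, 10 windows are too few for the 0 to tell anything about these factors. Both Ocln windows overlap and share 1 of their sites. These are matches of letters in a window, with no measure of binding.

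In control yolk sacs the 9 genes covered a wide range of levels. Per gene length, by the log2 FPKM values in the authors' deposited table, the keratin Krt18 averaged 8.31 ± 0.069, Krt8 7.82 ± 0.024 and the claudin Cldn6 7.77 ± 0.11 (SD, n = 4). Krt8 and Cldn6 did not differ beyond their spread. Cdh1 followed at 6.56 ± 0.13 and Vil1 at 6.29 ± 0.16, then Epcam at 5.67 ± 0.079. Tjp1 at 5.39 ± 0.074 and Cldn7 at 5.31 ± 0.14 overlapped, and Ocln was lowest at 3.73 ± 0.061. In H1CKO the order differed for Tjp1, which at 5.69 ± 0.016 log2 FPKM stood above Cdh1 at 5.32 ± 0.25, Epcam at 5.17 ± 0.17 and Vil1 at 4.91 ± 0.21 (n = 3). Epcam and Vil1 also changed places there, with Epcam above Vil1. In H1H2H2 Tjp1 was next to lowest, at 5.20 ± 0.18 against 4.28 ± 0.17 for Ocln (n = 4).

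In H1CKO yolk sacs 8 of the 9 genes fell relative to control and 1, Tjp1, rose. Vil1 and Cdh1 fell furthest, to 0.397 and 0.441 of the control level, and Krt8 and Epcam fell least. Over all tested genes, 25.6% were called lower and 27% higher in the same comparison. The median log2 fold change was -0.54 over the 9 genes and 0.03 over all tested genes. The values of H1CKO and control libraries did not overlap for any of the 9 genes. Over all tested genes, all H1CKO libraries lay below all controls for 29.1% and above them for 31.5%.

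Cdh1 (E-cadherin, chr8:106603368-106670246 on mm10, plus strand) is the calcium-dependent adhesion molecule of the adherens junction. It had 218, 159 and 169.8 CPM in H1CKO 5, 6 and 7, against 405, 364, 449 and 434 CPM in control 1 to 4. All H1CKO libraries lay far below the lowest control, at -1.18 on the log2 scale (SE 0.115, adjusted p = 9.72e-06). Epcam (chr17:87635979-87651127, plus) encodes a surface protein that binds claudins and steadies them at the membrane. Its level was 84.6, 67.2 and 76.6 CPM in H1CKO and 106.7, 100.4, 99.0 and 110.2 CPM in control. The gap between the groups was narrower than for Cdh1, with a log2 change of -0.45 (SE 0.0921, adjusted p = 0.00138).

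Among the tight junction genes, Cldn6 (chr17:23679365-23682446, plus) encodes a claudin typical of embryonic epithelia. It had 237, 174 and 192 CPM in H1CKO, against 318, 293, 344 and 347 CPM in control, a log2 change of -0.70 (SE 0.108, adjusted p = 0.000193). Cldn7 (chr11:69964779-69967886, plus), a claudin that binds EPCAM, was measured at 39.97, 29.2 and 28.9 CPM in H1CKO and 57.1, 49.4, 59.1 and 62.5 CPM in control. Its highest H1CKO library, H1CKO 5, stayed below the lowest control, and the log2 change was -0.80 (SE 0.164, adjusted p = 0.00142). Ocln (chr13:100497367-100552498, minus) encodes occludin, a membrane protein of the tight junction strand. With 32.4, 28.3 and 26.7 CPM in H1CKO and 44.3, 39.6, 41.5 and 42.2 CPM in control it fell by 0.52 on the log2 scale (SE 0.105, adjusted p = 0.00125).

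Tjp1 (chr7:65296165-65371244, minus) encodes ZO-1, the scaffold that ties claudins to actin and that is also made in heart muscle, endothelium and neural epithelium. It had 368, 380.1 and 374 CPM in H1CKO, against 295, 279, 319.9 and 288 CPM in control. Every H1CKO library lay above every control, and the log2 change was 0.34 (SE 0.0957, adjusted p = 0.0101). The call was lost when sex entered the model (0.33, adjusted p = 0.0616) and when H1CKO 6 was left out (0.29, adjusted p = 0.0519). The 3 H1CKO libraries are all male and control has 1 male among 4 by their Xist and Y-linked reads. Heart and neural markers, like Tjp1, were higher in H1CKO than in control as groups. Among the H1CKO libraries, H1CKO 5 had the lowest Tjp1. It had the highest heart muscle sum, 11140 CPM, and the lowest neural tube and somite sum, 99.7 CPM. The part of these tissues in the level of Tjp1 was not tested.

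Krt8 and Krt18 encode the partner keratins of simple epithelia, which form filaments only as a pair. Krt8 (chr15:101996711-102004342, minus) had 338, 318 and 322 CPM in H1CKO and 399, 410, 409 and 398 CPM in control, at -0.31 on the log2 scale (SE 0.0896, adjusted p = 0.0115). A stretch of 941 bases of Krt8 is near-identical in Krt8-ps, a pseudogene, so its reads are less certain than those of the other genes, and 5.16% of its exon bases overlap Gm36026 on the opposite strand (1.38% for Vil1 with Usp37). Krt18 (chr15:102028216-102032026, plus) had 318, 285 and 302 CPM in H1CKO and 440.5, 409, 466 and 443 CPM in control, a log2 change of -0.54 (SE 0.0825, adjusted p = 0.00017). Both partners were lower in every H1CKO library than in any control. The log2 FPKM of Krt8 minus that of Krt18, from the authors' deposited table, was -0.25 ± 0.041 in H1CKO, against -0.49 ± 0.084 in control.

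Vil1 (chr1:74409384-74435560, plus) encodes villin, which bundles actin in the microvilli of absorptive cells. It had 111, 83.4 and 93.5 CPM in H1CKO, against 240.2, 204, 262 and 260 CPM in control. The highest H1CKO library lay well under the lowest control, and the log2 change was -1.33 (SE 0.115, adjusted p = 5.24e-06). Without H1H2H2 9 and control 2 the 8 lower calls and the 1 higher call were counted again, with log2 fold changes of -1.45 for Vil1 and 0.27 for Tjp1.

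**Figure D1:**
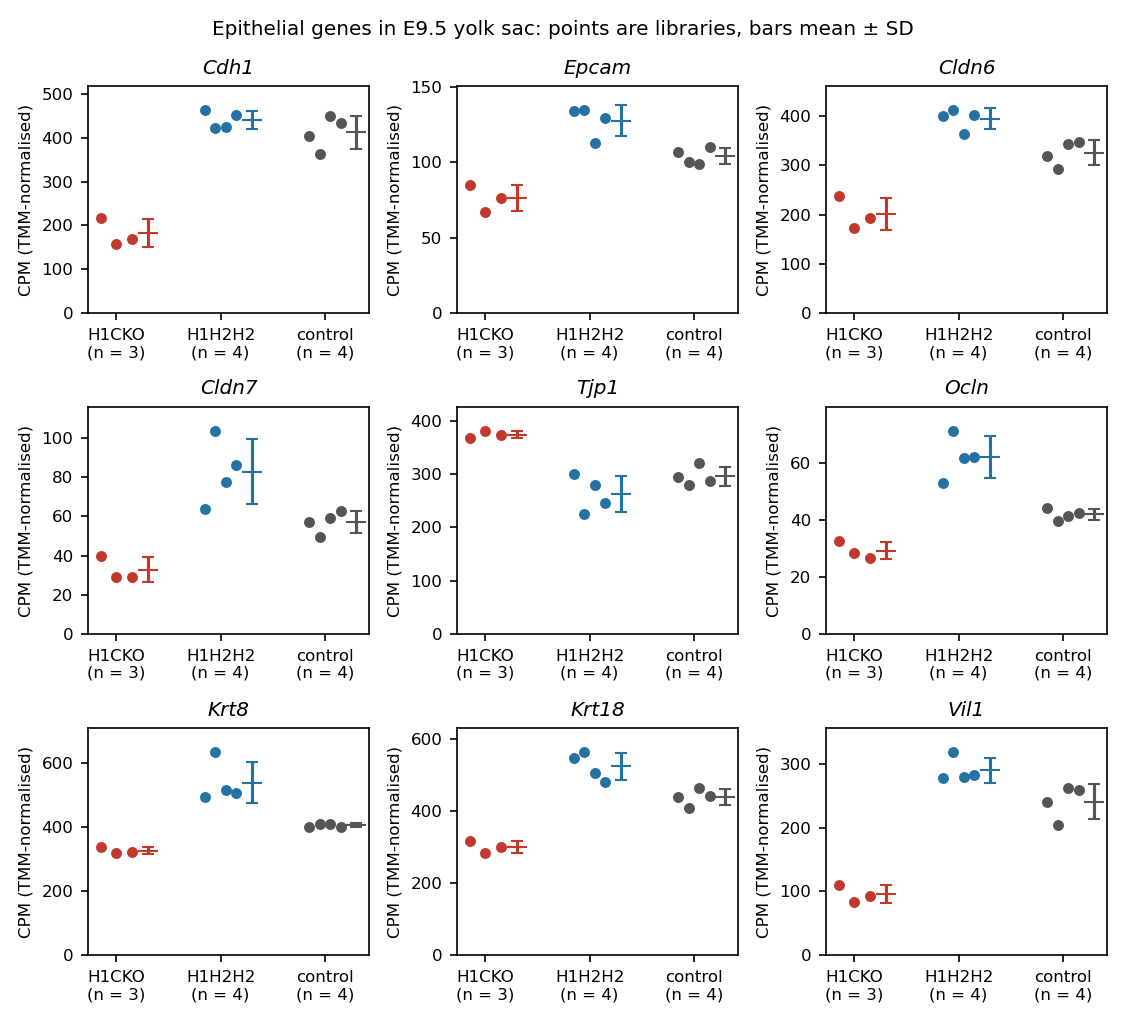
CPM of each of the 9 genes (y axis, linear from 0) in H1CKO, H1H2H2 and control libraries (x axis). Each point is a library and each bar a mean with its SD. In 8 panels the 3 H1CKO points lie lowest, and in the Tjp1 panel they lie highest, between 368 and 380.1 CPM.

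When Hand2 replaced Hand1, most of these genes stood slightly above control. In H1H2H2 against control 5 of the 9 genes rose (Ocln, Cldn7, Krt8, Epcam and Krt18), 0 fell, and Cldn6, Vil1, Cdh1 and Tjp1 did not pass the test. At an unadjusted p of 0.05, and with DESeq2 and limma-voom, the count of lower genes was 0 as well. Over all tested genes 9.49% were called higher and 7.16% lower, and the median log2 fold change was 0.28 over the 9 genes and -0.01 over all. For 7 of the 9 genes the libraries of the 2 groups did not overlap; Cdh1 and Tjp1 were the exceptions. Over all tested genes, all H1H2H2 libraries lay above all controls for 11% and below them for 8%. H1H2H2 9, the library with the highest Krt8, Cldn7 and Ocln, had the lowest sums of mesoderm and endothelial markers in its group, at 1824 CPM and 354.6 CPM, against 3237 to 4861 CPM and 539.1 to 675.9 CPM in the other H1H2H2 libraries. The part of these tissues in the higher values was not tested. The count of 5 was 2 or 3 when any 1 control or any 1 of H1H2H2 9, 10 and 11 was left out, and 2 with sex in the model. By Xist and Y-linked reads H1H2H2 has 3 males and 1 female, and control 1 male and 3 females, so sex and genotype partly coincide.

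Ocln had 53.01, 70.9, 61.8 and 61.8 CPM in H1H2H2 8 to 11, against 44.3, 39.6, 41.5 and 42.2 CPM in control. The difference on the log2 scale was 0.56 (SE 0.0948, adjusted p = 0.00643). Krt8 stood at 494, 632, 515 and 507 CPM in H1H2H2 and 399, 410, 409 and 398 CPM in control, a log2 change of 0.41 (SE 0.0825, adjusted p = 0.0111). Ocln and Krt8 passed the test in all 19 alternative fits of this comparison, including the one without H1H2H2 9 and control 2, where they had log2 fold changes of 0.46 (adjusted p = 0.0465) and 0.32 (adjusted p = 0.0451).

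Cldn7 ranged from 63.7 CPM in H1H2H2 8 over 77.6 and 86.4 CPM in H1H2H2 10 and 11 to 103.3 CPM in H1H2H2 9, against 57.1, 49.4, 59.1 and 62.5 CPM in control. H1H2H2 8 lay just above the highest control, and the log2 change was 0.54 (SE 0.146, adjusted p = 0.0306). Epcam had 134, 134.4, 112.6 and 129 CPM in H1H2H2 and 106.7, 100.4, 99.0 and 110.2 CPM in control, a log2 change of 0.29 (SE 0.0838, adjusted p = 0.0358). For Krt18 the values were 547, 564, 507 and 483 CPM in H1H2H2 and 440.5, 409, 466 and 443 CPM in control, a log2 change of 0.26 (SE 0.0754, adjusted p = 0.0389). These 3 calls depended on the settings: Cldn7 passed in 10, Epcam in 9 and Krt18 in 7 of the 19 alternatives. Without H1H2H2 9 and control 2 none of the 3 passed, at 0.34 (adjusted p = 0.175), 0.24 (adjusted p = 0.188) and 0.18 (adjusted p = 0.208).

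Cldn6 had 400.3, 412, 364 and 402.5 CPM in H1H2H2, against 318, 293, 344 and 347 CPM in control, without overlap and with a log2 change of 0.28 (SE 0.0978, adjusted p = 0.0701). Vil1 had 279, 319, 280.2 and 284 CPM in H1H2H2 and 240.2, 204, 262 and 260 CPM in control, also without overlap, with a log2 change of 0.27 (SE 0.102, adjusted p = 0.0877). Both genes were thus higher in every H1H2H2 library without passing the threshold over all genes. Cldn6 passed in 2 of 19 alternatives, with DESeq2 (adjusted p = 0.0443) and with only the groups compared in the model (adjusted p = 0.0469), and Vil1 in 0. Cdh1, at 463, 423, 424 and 452 CPM in H1H2H2 and 405, 364, 449 and 434 CPM in control, overlapped between the groups, with a log2 change of 0.09 (SE 0.102, adjusted p = 0.542). Tjp1 was 300.1, 225, 279 and 246 CPM in H1H2H2 and 295, 279, 319.9 and 288 CPM in control, a log2 change of -0.17 (SE 0.0891, adjusted p = 0.193). It was the only one of the 9 genes with a negative value, and it passed the test as lower in 1 of 19 alternatives, the one without H1H2H2 8 (-0.26, adjusted p = 0.0276).

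Set directly against each other, H1H2H2 and H1CKO differed in all 9 genes: 8 were higher in H1H2H2 and Tjp1 was lower. The background was high here too, with 31.8% of tested genes called higher and 33.3% called lower. Vil1 averaged 290.6 ± 19.1 CPM in H1H2H2 and 95.9 ± 13.8 CPM in H1CKO (SD, n = 4 and 3), a log2 difference of 1.60 (SE 0.116, adjusted p = 8.31e-07). Cldn7 differed by 1.34 (SE 0.166), Cdh1 by 1.28 (SE 0.115), Ocln by 1.09 (SE 0.106) and Cldn6 by 0.97 (SE 0.108). Krt18 at 0.80, Epcam at 0.74 and Krt8 at 0.72 differed least among the higher genes. Tjp1 averaged 262.5 ± 33.4 CPM in H1H2H2 and 374 ± 5.97 CPM in H1CKO, a difference of -0.51 (SE 0.0956, adjusted p = 0.000514). Groups did not overlap for any of the 9. Over all tested genes, all H1H2H2 libraries lay above all H1CKO libraries for 29.7% and below them for 32.6%. Every alternative that was run called all 9 in the same direction. Without H1H2H2 9 and control 2 the difference was 0.67 for Krt8, 1.58 for Vil1 and between those for the other higher genes, and it was -0.41 for Tjp1. It is this comparison that tests the mutants against each other, since the other comparisons share the 4 controls.

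**Figure D2:**
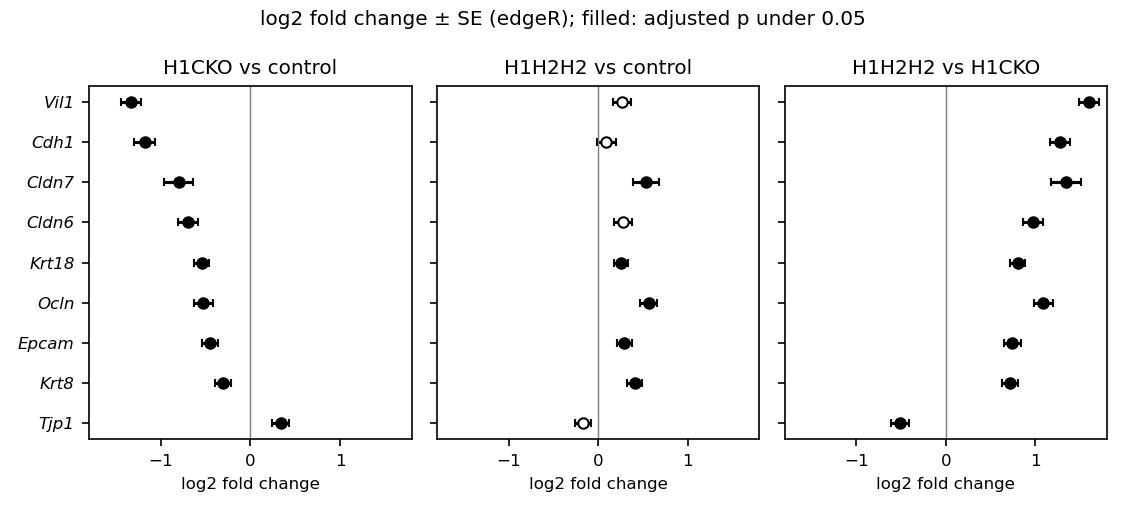
Log2 fold change of the 9 genes with its SE in H1CKO against control, H1H2H2 against control and H1H2H2 against H1CKO. Filled points passed an adjusted p of 0.05 (edgeR), which was so for 9, 5 and 9 genes; Tjp1 lies on the other side of 0 from the rest in each panel.

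The authors' deposited table gave the same counts of calls for the 9 genes at an adjusted p of 0.05: 1 higher and 8 lower in H1CKO against control, 5 higher and 0 lower in H1H2H2 against control, and 8 higher and 1 lower in H1H2H2 against H1CKO.

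Markers of visceral endoderm were lower in H1CKO as well. All 15, among them the apolipoprotein gene Apob and the receptor gene Cubn, were lower than in control with a median log2 fold change of -1.82, and their summed level was 10130 to 17450 CPM in H1CKO, 48310 to 51420 CPM in H1H2H2 and 40570 to 46920 CPM in control. In H1H2H2 3 of the 15 rose, with a median of 0.14. To put the 9 genes on the scale of this tissue, the mean log2 CPM of the 15 markers was taken off each gene's log2 CPM in the same library. The result is a description, with no test.

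On that scale all 9 genes were higher in H1CKO than in control. The subtraction gives this for any gene that fell less than the mean of the markers. Single markers differ from that mean. Vil1, at -1.33 against control on the log2 scale, fell further than Amn (-1.21), Lrp2 (-1.28) and Soat2 (-1.29). The other markers fell further than Vil1. Vil1 and Cdh1 had the smallest differences. Vil1 was -1.65 ± 0.24 in H1CKO and -2.05 ± 0.075 in control, a difference of 0.40, and Cdh1 was -0.73 ± 0.19 in H1CKO and -1.27 ± 0.057 in control, a difference of 0.55. Cldn7 differed by 0.93, Cldn6 by 1.03, Krt18 by 1.19, Ocln by 1.21, Epcam by 1.28 and Krt8 by 1.42. Tjp1 was 0.33 ± 0.44 in H1CKO and -1.75 ± 0.099 in control, a difference of 2.08. The H1H2H2 libraries stayed close to control on this scale, with differences between -0.35 for Tjp1 and 0.38 for Ocln. Which cells made the transcripts was not tested.

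**Figure D3:**
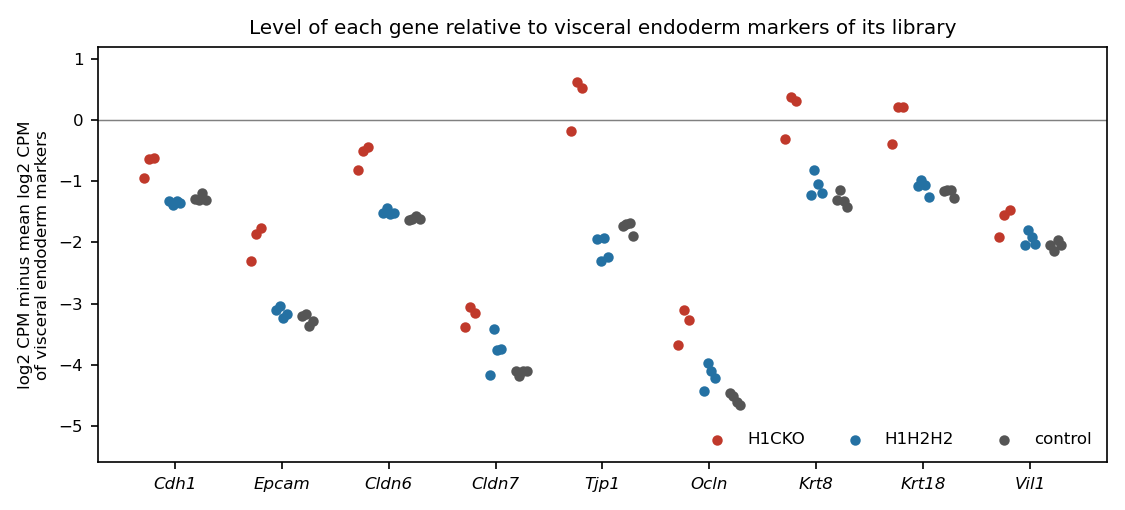
Log2 CPM of each gene minus the mean log2 CPM of 15 visceral endoderm markers in the same library (y axis), by gene (x axis) and group (colour); each point is a library. The H1CKO points lie above the control points for every gene, by 0.40 for Vil1 and 2.08 for Tjp1 on average.

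Other genes of the same structures were read from lists, each counted beside the shares for all genes given above. Values given for these genes without a unit are log2 fold changes against control. The 15 visceral endoderm markers fell in the same H1CKO libraries as the genes below, and their part in these changes was not tested. The brush border list mostly fell in H1CKO. Of its 27 genes 22 fell and 2 rose, with a median of -1.08. Eps8, an actin-capping and bundling protein of microvilli, averaged 54.2 ± 12.02 CPM in H1CKO and 160.5 ± 11.6 CPM in control (log2 change -1.57, SE 0.139, adjusted p = 6.08e-06). Pls1, an actin-bundling plastin, averaged 70.5 ± 12.4 CPM in H1CKO and 166 ± 15.1 CPM in control (log2 change -1.24, SE 0.114, adjusted p = 6.96e-06). Myo1a and Prom1 were the genes that rose. In H1H2H2 4 of the 27 rose. Dpp4, an apical peptidase, rose by 0.47 (SE 0.12, adjusted p = 0.0239) and Myo6, a motor at the base of microvilli, by 0.37 (SE 0.0935, adjusted p = 0.0242), and in the direct comparison 23 were higher and 2 lower in H1H2H2 than in H1CKO, with a median of 1.29.

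The tight junction list was mixed in H1CKO: 8 of 15 tested genes fell and 3 rose. Cldn2, a channel-forming claudin, averaged 71.9 ± 26.5 CPM in H1CKO and 238 ± 18.3 CPM in control (log2 change -1.73, SE 0.18, adjusted p = 1.47e-05). Cldn9, a gene of very low level, averaged 2.85 ± 0.42 CPM in H1CKO and 0.245 ± 0.16 CPM in control (log2 change 3.50, SE 0.43, adjusted p = 3.93e-05). Cldn4 rose as well, and so did Cxadr, a junctional adhesion protein also made in heart muscle, with a log2 change of 1.17 (SE 0.107). Part of the Cxadr transcript, 9.46% of its exon bases, overlaps genes on the opposite strand. In H1H2H2 only F11r, a junctional adhesion molecule, passed, with a log2 change of 0.36 (SE 0.0939, adjusted p = 0.0268).

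Of the 12 adherens junction genes 2 rose and 2 fell in H1CKO, and 8 did not pass. The catenin gene Ctnnb1, which links cadherins to actin through other catenins, had 643 ± 14.9 CPM in H1CKO and 640.3 ± 23.9 CPM in control. It was the 1 gene of the list that passed in H1H2H2, with a log2 change of 0.34 (SE 0.0824, adjusted p = 0.0211), and 15.1% of its exon bases overlap other genes. Jup, a catenin shared with desmosomes, fell by 0.38 (SE 0.0849, adjusted p = 0.00251) and Lima1, an actin binder at the junction, by 0.57 (SE 0.141, adjusted p = 0.00497). Pvrl1, a nectin, was higher at 0.73 (SE 0.0852, adjusted p = 2.81e-05). Mllt4, whose product afadin ties nectins to actin, was the other riser, at 0.22 (SE 0.0832, adjusted p = 0.0432), and its call was lost in 13 of 18 alternatives. Among 9 desmosome genes 4 fell in H1CKO: Dsc2 (-0.99), Pkp3 (-0.84), Dsg2 (-0.63) and Perp (-0.61). In H1H2H2 the plakophilin Pkp3 rose by 0.55 (SE 0.136, adjusted p = 0.0215), and Pkp2 by 0.42 (SE 0.118, adjusted p = 0.0341).

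Apical polarity genes also went both ways in H1CKO, with 6 of 10 lower and 2 higher. Crb3, a membrane protein that marks the apical side, was lower at -1.05 (SE 0.122, adjusted p = 2.83e-05), and Pard6b was lower at -0.65 (SE 0.106, adjusted p = 0.000269). Pard3, a scaffold of the same complex, was higher at 0.68 (SE 0.0962, adjusted p = 0.000101). Llgl2, a basolateral polarity protein, was the single call in H1H2H2, with a log2 change of 0.42 (SE 0.105, adjusted p = 0.0235). Of the other keratins 3 of 5 tested fell in H1CKO, led by Krt7 at -1.25 (SE 0.135, adjusted p = 1.79e-05), while Krt19 had 53.3 ± 8.63 CPM in H1CKO and 42.4 ± 7.53 CPM in control (adjusted p = 0.121).

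The matriptase pathway, made up here of membrane serine proteases and their inhibitors, had 4 of its 5 genes lower in H1CKO. Prss8, the protease prostasin, was at -1.33 (SE 0.141, adjusted p = 1.62e-05), Tmprss2 at -1.02 (SE 0.114), the inhibitor Spint1 at -0.89 (SE 0.125) and the inhibitor Spint2 at -0.58 (SE 0.0933). St14, matriptase itself, did not pass. In H1H2H2 Spint1 rose by 0.37 (SE 0.111, adjusted p = 0.0414) and Tmprss2 by 0.35 (SE 0.102, adjusted p = 0.0398).

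Among 16 regulators of epithelial genes 6 fell and 4 rose in H1CKO, with a median of -0.06. Hnf4a, a transcription factor of endoderm, averaged 146 ± 31.4 CPM in H1CKO and 438 ± 37.3 CPM in control (log2 change -1.59, SE 0.142, adjusted p = 6.16e-06). The splicing factor Esrp2 was at -0.995 (SE 0.107), the sorting adaptor Ap1m2 at -0.79 (SE 0.117) and Foxa2, a factor of endoderm, at -0.66 (SE 0.107). Grhl2, an activator of Cdh1 and claudin genes, went the other way from most of the 9 genes in both mutants. It averaged 18.99 ± 1.05 CPM in H1CKO and 10.6 ± 1.54 CPM in control (log2 change 0.84, SE 0.189, adjusted p = 0.00268), and 5.95 ± 1.54 CPM in H1H2H2 against the same controls (log2 change -0.84, SE 0.183, adjusted p = 0.0147). Markers of surface ectoderm, gut and nephric epithelium moved the same way as Grhl2, with 6 of 8 higher and 1 lower in H1CKO and 3 of 8 lower in H1H2H2, and their part in it was not tested. Ap1m2 rose in H1H2H2 by 0.52 (SE 0.104, adjusted p = 0.0116).

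Of 11 mesenchymal genes and repressors of Cdh1 7 rose and 1, Fn1, fell in H1CKO. Cdh2 (N-cadherin), the cadherin of heart muscle and neural tissue, averaged 151 ± 3.98 CPM in H1CKO and 20.3 ± 9.20 CPM in control (log2 change 2.90, SE 0.357, adjusted p = 3.98e-05). Twist1, a factor of mesenchyme, was higher by 1.85 (SE 0.197, adjusted p = 1.7e-05), Tcf3, which encodes the E-box binding E2A proteins, by 1.196 (SE 0.0991, adjusted p = 4.71e-06) and Zeb1, a repressor of Cdh1, by 0.88 (SE 0.193, adjusted p = 0.00229). Snai1 and Snai2 did not pass. In H1H2H2 Tcf3 was the only one of the 11 that passed, with a log2 change of -0.35 (SE 0.0933, adjusted p = 0.0283). Of the calls in H1H2H2 on list genes named above, Ap1m2 and Grhl2 were lost in 1 and 2 of 19 alternatives and the others in 7 to 10. Without H1H2H2 9 and control 2, edgeR called 0 of 109 tested genes of all lists in H1H2H2 against control. Over all tested genes, 0.99% were called higher and 1.28% lower there. At an unadjusted p of 0.05, 14 of the 109 were higher and 6 lower. Those 2 counts cannot be set against the shares, which are at the adjusted threshold. In H1CKO against control the same omission gave 22 brush border, 9 tight junction, 6 polarity, 4 desmosome and 3 keratin genes lower. It also gave 4 matriptase pathway, 2 adherens junction and 6 regulator genes lower, and 8 mesenchymal genes higher and 1 lower. Higher in the same fit were 6 regulators, with a list median of 0.08, 3 brush border, 2 tight junction, 1 adherens junction and 1 polarity gene. Krt19 passed as higher too (0.42, adjusted p = 0.0481). Set against H1CKO, H1H2H2 then had 23 brush border genes higher and 3 lower. Over the alternatives that were run, 18.9% to 30.1% of all tested genes were called lower in H1CKO against control and 19.7% to 30.8% higher. In H1H2H2 against H1CKO, 26% to 34.2% were called higher and 26.8% to 38.4% lower. Heart muscle markers and neural tube and somite markers rose in H1CKO, by medians of 6.22 and 6.74 on the log2 scale. Most mesenchymal genes rose with them, while most brush border genes fell. The part of these markers in the changes of the list genes was not tested.

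**Figure D4:**
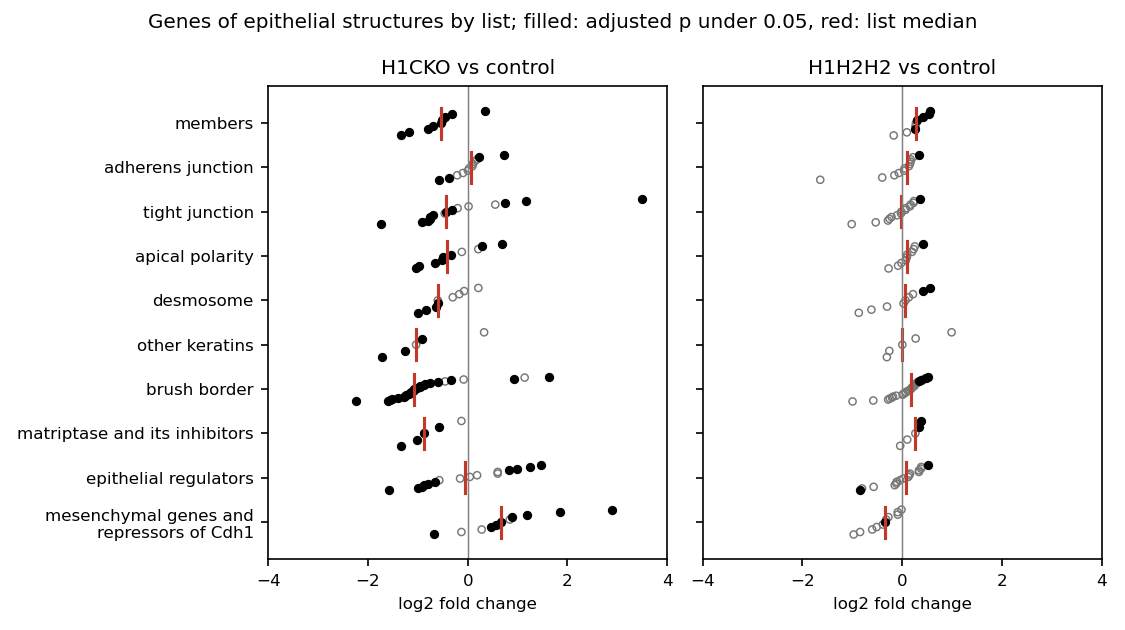
Log2 fold change of each gene (points) by list (y axis) in H1CKO against control and H1H2H2 against control. Filled points passed an adjusted p of 0.05 and red bars are list medians; in H1CKO the brush border median is -1.08 and that of the mesenchymal list 0.66.

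Within groups, several libraries had most of the 9 genes on the same side of the group mean. In H1CKO 5, the library with the highest visceral endoderm markers of its group, 8 of the 9 genes lay above the group mean of log2 CPM, against 1 of 9 in H1CKO 6 and 2 of 9 in H1CKO 7. The visceral endoderm markers deviated by 0.49 in H1CKO 5, -0.29 in H1CKO 6 and -0.20 in H1CKO 7. H1CKO 5 also had the highest heart muscle sum of its group, 11140 CPM, and the lowest neural tube and somite sum, 99.7 CPM. Deviations from a group mean offset each other, so the counts of these libraries are not independent. In H1H2H2 9, which holds the high parietal endoderm markers, 7 of 9 genes were above their group mean, and in control 2 only 1 of 9 was. The coefficient of variation of a gene over the libraries of a group was 1.60% to 19.2% in H1CKO, 4.53% to 20.1% in H1H2H2 and 1.56% to 11.1% in control. Tjp1 had the lowest one in H1CKO and Krt8 the lowest one in control.

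**Figure D5:**
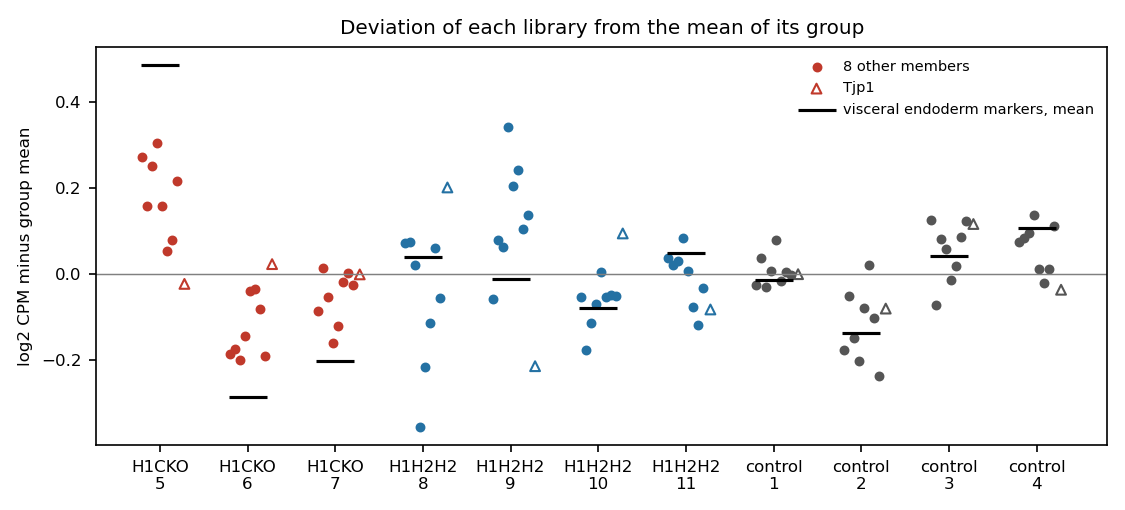
Log2 CPM of each gene minus its group mean (y axis) in each library (x axis); triangles are Tjp1 and black bars the mean deviation of 15 visceral endoderm markers. The black bar of H1CKO 5 is at 0.49, and 8 of the 9 genes of that library lie above 0.

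The tested genes whose log2 CPM ran most like each of the 9 over the 11 libraries were found by Pearson's r, as a description in which the difference between the 3 groups weighs most. Nearest to Cdh1 were Rbp4, Arhgef3 and Hexa (r of 0.997 to 0.998), and Rbp4, a retinol carrier, is also 1 of the 15 visceral endoderm markers. Nearest to Vil1 were Slc9a3r1, Abcc4 and Zfp280b (0.995), of which Slc9a3r1 is on the brush border list. Among those nearest to Cldn6 were Sec14l2 and Acadm (0.994). Cldn7 ran most like Fh1, Vasp and Pgs1 (0.992), and Ocln like Pak2, Ubac2 and Mdh1 (0.991 to 0.992). For Krt8 they were Icmt, Zdhhc3 and Fbxw8 (0.984 to 0.991), for Krt18 Rab11fip5, Spint1 and Ripk4 (0.986 to 0.99) and for Epcam Cd82, Gltpd2 and Ormdl2 (0.977 to 0.985). Tjp1 had neighbours of its own in Fat1, Bptf and Myh10 (0.984 to 0.986), of which Fat1 is an atypical cadherin and Myh10 a non-muscle myosin.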

How the data were processed

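The 11 RNA libraries of embryonic day 9.5 yolk sac were prepared using a KAPA mRNA HyperPrep kit, per the labels. The submitters' processing notes list STAR 2.5.2b, Subread 1.5.1, featureCounts, edgeR and the build mm10 without settings; whether counting used strand is not given in the sources used here. The authors deposited raw read counts per gene, expression as log2 FPKM, and log2 fold changes with p-values and FDR per comparison. Tests used the counts alone: edgeR 4.0.16 in R 4.3.3, filterByExpr, TMM factors, 1 quasi-likelihood model over the 3 groups, and Benjamini-Hochberg adjustment at 0.05 over 14671 genes. Each adjusted p is from this fit except where an alternative is named. SE is the log2 fold change over the square root of F, and log2 CPM used a prior count of 2. Labels gave the groups, and no batch. Totals were 12019377 to 16824228 counts per library, of which the ribosomal gene Rn45s took 5.61% to 11.4%. The 9 genes, the lists and the markers were chosen with earlier results of these data known. From each list, the text names up to 4 genes with the smallest p in H1CKO against control and up to 2 in H1H2H2 against control. Those with a near-identical copy (BLAST+ 2.17.0) were passed over, except Cxadr and Ctnnb1. Cxadr matched Btg3 over 357 bases and Ctnnb1 matched Ulk4 over 476 bases, genes that overlap their exons. Cldn4, Myo1a, Prom1, St14, Fn1, Snai1 and Snai2 were named after their values were seen. Of the genes found by their likeness to the 9, 1 is not reported here. Alternatives included DESeq2 1.42.0, limma 3.58.1 (voom), other scaling and filters, a term for sex, and libraries left out. The fits were tested on simulated data. Gene coordinates are those the authors deposited with the counts (mm10). Overlaps with other genes and near-identical copies were looked for in GENCODE M21 (GRCm38). Promoters are RefSeq's, and the Krt8 copy was found with at least 95% identity over 300 bases.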

Additional observations from a re-analysis of the deposited data

Results flagged for a closer look

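Of 60 sets of 4 libraries examined, 8 had 1 library far from the other 3 by Dixon's criterion at 95%; chance gives about 1 in 20. In H1H2H2 9, Krt8 was at 632.1 CPM (493.9 to 515.1 in the others), Vil1 at 319.1 CPM (279.3 to 283.8), Cldn6 relative to the visceral endoderm markers at -1.431 (-1.54 to -1.523) and the summed parietal endoderm markers at 5116 CPM (1515 to 1737). In control 2 the summed parietal endoderm markers were at 6819 CPM (1579 to 1775), the summed trophoblast and decidua markers at 200.8 CPM (45.5 to 53.7) and Cldn7 relative to the visceral endoderm markers at -4.19 (-4.109 to -4.096). In control 3, Cldn6 relative to these markers was at -1.571 (-1.628 to -1.623).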

How the results depend on the processing

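The 8 lower calls in H1CKO against control came to 7 or 8 in every alternative, and the 8 higher and 1 lower calls in H1H2H2 against H1CKO stayed at those counts in every one. The single higher call in H1CKO, Tjp1, became 0 with a term for sex and at an adjusted p of 0.01, and ranged over 0 to 1 when a library was left out (0 without H1CKO 6). In H1H2H2 against control the 5 higher calls became 3 with upper-quartile factors, 2 with a term for sex, 2 with control 1 and 2 summed, 2 without control 2 and H1H2H2 9 (an alternative chosen after seeing the data) and 1 at an adjusted p of 0.01. Leaving out any 1 control or H1H2H2 library other than H1H2H2 8 gave 2 to 3 higher calls, and lower calls ranged over 0 to 1, the 1 being Tjp1 without H1H2H2 8 (-0.26, adjusted p = 0.0276). The share of all tested genes called higher there ran between 0.99% and 16.9%. DESeq2 called 6 higher. The alternatives recomputed the fold changes of the 9 genes and Hand1 and, for list genes, those that rank among the smallest p of a list in that comparison or, for H1H2H2 against H1CKO, in H1CKO against control; none of these changed sign. No paired analysis was possible because the groups share no replicate numbers. Precision is limited by 3 or 4 libraries a group; each value of the 9 genes rests on 350 reads or more.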
